A study of Bos taurus with 90 samples.

Results

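Cumulus cells (CCs) and oocytes of large bovine antral follicles were compared in 20 RNA-seq libraries, 1 CC library and 1 oocyte library from each of 10 follicles, out of 90 libraries in the series. The members were all libraries of CCs and oocytes labelled as coming from large follicles, and they were paired by the number of the follicle they came from. Follicles are named by the part that the titles of their libraries share, such as L71801 for the large follicle that gave CL71801 and OL71801. The follicles measured 9.6 to 11.6 mm in diameter and came from ovaries of Bos taurus cows collected at a slaughterhouse, with no treatment named, and the ages of the cows are not given in the labels. Each oocyte library was made from a single denuded oocyte and each CC library from a small pool of the cells that adhered to it. Both were amplified by SMART-seq2, a method that copies full-length polyadenylated RNA from very little material, without molecular identifiers. The number of amplification cycles was higher for oocytes than for CCs, which cannot be told apart from cell type. The series also holds mural granulosa cells (MGCs), the cells that line the follicle wall, which were sequenced as ordinary bulk RNA from the same follicles, and small and medium follicles sampled in the same way. From the MGCs the study called 4 of the large follicles healthy, and all 10 large follicles, the other 6 included, are used here. Which follicles shared a cow or a collection day was not assigned here. The p-values therefore measure the spread between follicles, some of which may share an animal.

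Cumulus cells are granulosa cells that surround the oocyte and stay joined to it by cell projections ending in gap junctions, through which they pass metabolites that the oocyte makes poorly for itself. The oocyte in turn secretes growth factors that hold cumulus cells in their state and keep them from differentiating as mural granulosa cells do. An oocyte stores much of the messenger RNA that the early embryo will use. Its transcription falls silent, at a stage not measured here, whereas cumulus cells remain transcriptionally active.

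The counts are listed by Ensembl gene identifier, and no table used here pairs these identifiers with symbols. Genes are therefore described by their levels and by sets built from the other follicle stages, and the labelled cell types could not be checked against named markers. Levels are given as CPM, a gene's share of the total count of its library scaled to a fixed total, which is not corrected for gene length. In a CC pool or in bulk MGCs, fewer cells of a type and less RNA per cell cannot be told apart. The CC totals were 17076271 at the lowest, 29213462 at the median and 40180192 at the highest, and the oocyte totals were 21792371, 28086926 and 40425034. Totals did not differ between the paired libraries by more than their spread (exact two-sided permutation test over 10 pairs, p = 0.506, adjusted p = 0.506 over 6 library measures). In every library, most of the counts between 1 and 20 were even numbers, 61.8% to 76.7% in CCs and 62.1% to 75.1% in oocytes. The origin of this excess was not tested, and halving all counts gave 10386 differentially expressed genes (DEGs) in place of the 10271 below.

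More genes were above 1 CPM in oocytes than in their CCs, a difference that passed the test only without TMM scaling. The number of such genes was 10830, 12750 and 13152 in oocytes (lowest, median and highest) and 11182, 11749.5 and 12155 in CCs. The ranges overlapped, since the oocyte of follicle L71801 had the lowest count of all 20 libraries, and the oocyte was above its own CCs in the other 9 follicles. The mean paired difference was -876 ± 741 genes for CCs minus oocytes (SD, n = 10 pairs; exact two-sided permutation test, p = 0.0117, adjusted p = 0.0141). With CPM scaled by edgeR's TMM factors, which ranged from 0.663 to 1.03 in CCs and from 1.09 to 1.19 in oocytes, the difference was -479 ± 625 genes (exact permutation test, p = 0.0469, adjusted p = 0.0563 over the same 6 measures). The call was thus lost with this scaling, although the oocyte was again higher in 9 of 10 follicles. Any count at all gave the opposite order, with 15094, 15942 and 18588 genes in CCs and 11861, 15383.5 and 16251 in oocytes. CCs were above their oocyte in 9 of 10 follicles on this measure. The mean difference was 1182 ± 1227 genes (exact permutation test, p = 0.00391, adjusted p = 0.00586). The widest gaps were in follicles L71801, with 15584 genes in CCs and 11861 in the oocyte, and L62803, with 18588 and 15455. These raised the mean, and this measure was not run without them. The number of genes depended on the level required, and CCs had the larger number of genes at very low counts.

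**Figure D1:**
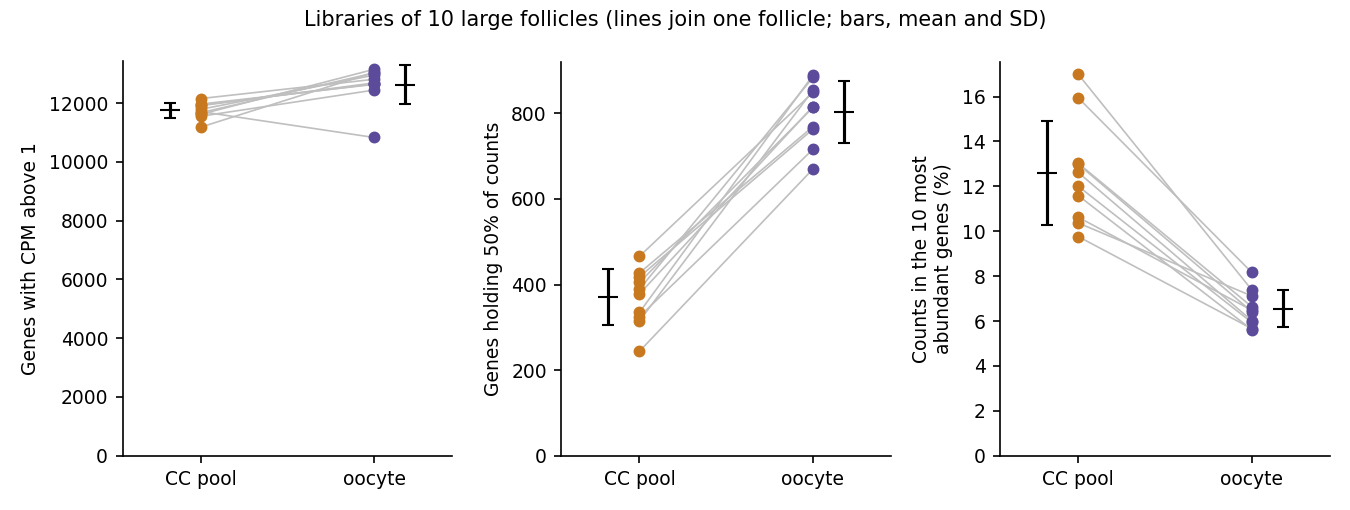
Number of genes with a CPM above 1, number of the most abundant genes that together hold 50% of the counts, and percent of counts in the 10 most abundant genes, for the CC pool and the oocyte of 10 large follicles. Lines join the libraries of 1 follicle, and bars give the mean and SD of each cell type. All 10 oocytes lie above all 10 CC pools in the middle panel, and in the left panel 1 oocyte, at 10830 genes, lies below every CC pool.

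CC transcripts were concentrated in fewer genes. The 10 most abundant genes of a library held 9.76%, 12.3% and 17.0% of the counts in CCs and 5.62%, 6.45% and 8.17% in oocytes. Every CC library was above every oocyte library, and the mean paired difference was 6.05 ± 1.87 percentage points (SD, n = 10 pairs; exact permutation test, p = 0.00195, adjusted p = 0.00391). The 100 most abundant genes held 30.2%, 32.2% and 37.1% in CCs against 19.02%, 20.4% and 23.4% in oocytes, a difference of 12.1 ± 1.77 percentage points. Put the other way, 50% of the counts lay in 244, 383.5 and 466 genes in CCs and in 670, 815 and 889 genes in oocytes, a paired difference of -432 ± 75.02 genes. Neither measure overlapped between the cell types, each had the same direction in 10 of 10 follicles, and each had an exact permutation p of 0.00195 (adjusted p = 0.00391), the smallest that all sign arrangements of 10 pairs allow.

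The most abundant genes were different ones in the 2 cell types. By mean CPM, the lists of the 10 most abundant genes shared 0 genes, and the lists of 100 shared 11. The 10 leading genes of CCs had mean levels of 6949 to 23239 CPM in CCs and 7.10 to 1286 CPM in oocytes. The 10 leading genes of oocytes had 3778 to 11091 CPM in oocytes and 0.26 to 3003 CPM in CCs, where 3 of them were below 1 CPM. Of the 100 leading genes of oocytes, 22 were below 1 CPM in CCs, whereas of the 100 leading genes of CCs only 1 was below 1 CPM in oocytes. These lists were chosen by level in the same libraries and are given as a description.

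Across the genes, CCs and oocytes of large follicles differed in most of what they expressed. Of 15125 genes tested, 10271 (67.9%) were DEGs with a fold change above 2 and a Benjamini-Hochberg adjusted p under 0.05 in edgeR's quasi-likelihood test with the follicle as a block. The DEGs divided almost evenly by direction, with 5069 higher in CCs (33.5% of the genes tested) and 5202 higher in oocytes (34.4%). In CPM, all 10 CC libraries lay above all 10 oocyte libraries for 2351 genes (15.5%), and all 10 oocytes lay above all 10 CC libraries for 3612 genes (23.9%). The direction was the same in 10 of 10 follicles for 3439 of the 5069 DEGs higher in CCs and for 4216 of the 5202 higher in oocytes. Both pairs of counts depended on the scaling. With TMM-scaled CPM, 2894 genes for CCs and 3088 for oocytes showed no overlap, and 3955 and 3962 DEGs had the same direction in 10 of 10 follicles. The even division of the DEGs rests on the same scaling. With library totals in place of edgeR's TMM factors, 4434 genes were higher in CCs and 5898 in oocytes, so that 42.9% of the DEGs were higher in CCs in place of 49.4%, and the median log2 difference of all genes moved from -0.00 to -0.39.

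**Figure D2:**
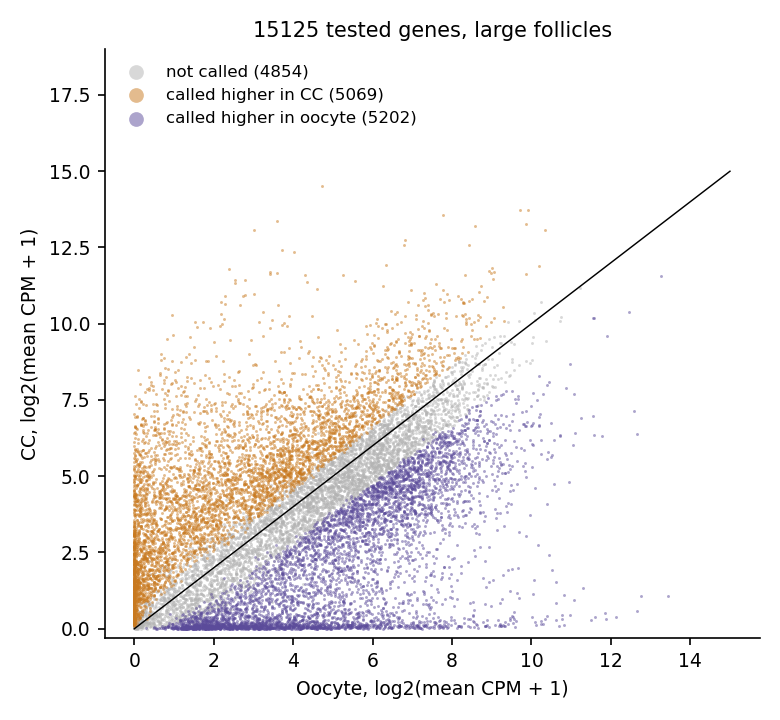
Mean level of each of 15125 genes in CCs (vertical axis) against oocytes (horizontal axis) of 10 large follicles, both as log2(mean CPM + 1), with the line of equal levels. Genes higher in CCs (5069) and higher in oocytes (5202) lie on either side of the genes that were not called (4854), and both classes reach down to the axes, where the other cell type had almost no counts.

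Very large differences were more often towards the oocyte. The ratio of mean CPM, with the lower group set to at least 3 counts per library, was 10 or more for 1948 genes towards CCs and 2740 towards oocytes. At a ratio of 100 or more there were 426 and 758 genes, and at 1000 or more there were 17 and 135. With TMM-scaled CPM the numbers were nearly even at 10-fold (2276 and 2398 genes), and the excess towards the oocyte was smaller at 100-fold (516 and 624) and at 1000-fold (41 and 101). Genes without any count ran the other way, with 433 genes at 0 counts in all 10 oocytes and 116 genes at 0 counts in all 10 CC libraries. Few of these were abundant in the other cell type. Only 10 of the 433 had 10 CPM or more in every CC library, and 8 of the 116 had 10 CPM or more in every oocyte.

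The DEGs also accounted for most of the RNA counted in each library. Genes higher in CCs held 68.6%, 71.2% and 73.7% of the CC counts and 9.80%, 11.03% and 12.0% of the oocyte counts. Genes higher in oocytes held 61.0%, 63.0% and 64.3% of the oocyte counts and 6.34%, 7.50% and 8.52% of the CC counts. The typical gene higher in CCs had a median level of 28.4 CPM in CCs and 3.16 CPM in oocytes. The typical gene higher in oocytes had 2.199 CPM in CCs and 36.8 CPM in oocytes. These shares follow from the call itself and are given as a description. The share of genes called varied with the level, from 57.2% of 1200 genes under 1 CPM to 91.9% of 86 genes at 1000 CPM or more, where 52 DEGs were higher in CCs and 27 in oocytes.

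A smaller set of genes had levels in the cell types that could be bounded as alike. For 1342 genes (8.87% of those tested) the 95% interval of the log2 difference lay within -1 and 1, so that a difference over 2-fold fell outside it. Their median level was 57.0 CPM, against 18.6 CPM for all genes tested, and they held 10.1% to 11.9% of the CC counts and 13.8% to 14.4% of the oocyte counts. Another 3512 genes were neither called nor bounded in this way, and for these the data do not settle whether the levels differ.

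At a CPM above 1, the 2 cell types of a follicle still shared most of their expressed genes. In a single follicle 8703, 9878.5 and 10117 genes were above 1 CPM in both cell types (lowest, median and highest). A further 1580, 1954.5 and 3008 genes were above 1 CPM in CCs alone and 2127, 2811 and 3449 in the oocyte alone. Follicle L71801 held both the lowest number shared and the highest number in CCs alone, and it was the only follicle with more genes in CCs alone than in the oocyte alone. The shared genes made up 66.7 ± 1.68% of those above 1 CPM in either library of a follicle (SD, n = 10). Levels were nevertheless ordered differently. The rank correlation over the tested genes was 0.436, 0.458 and 0.486 between the CCs and the oocyte of the same follicle, and 0.408, 0.455 and 0.498 over the 90 pairings of CCs and oocytes from different follicles. Within a cell type it was 0.862, 0.923 and 0.966 over 45 pairs of CC libraries and 0.884, 0.945 and 0.968 over 45 pairs of oocytes. These correlations are across genes, which are not independent replicates. By this measure the CCs and oocyte of a follicle were about as unlike as those of different follicles, and each library was far closer to its own cell type. Deviations from the mean of each gene within its cell type correlated at a median of 0.11 between the CCs and oocyte of a follicle. The median was -0.02 between different follicles, and the own oocyte was the best match for 4 of 10 CC libraries.

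Genes restricted to CCs or to oocytes, each against the other, were taken from the small and medium follicles, which share no library with the large ones. MGCs played no part in this choice, so restricted genes may be expressed in MGCs. In 16 such follicles, 532 genes had 10 CPM or more in every oocyte and a median under 1 CPM in CCs, and 162 genes had 10 CPM or more in every CC library and a median under 1 CPM in oocytes. In large follicles all 532 oocyte genes were DEGs higher in oocytes, against 34.4% of all genes tested, and in 526 of them the 10 oocytes and 10 CC libraries did not overlap, against 23.9% of all genes. All 162 CC genes were DEGs higher in CCs, against 33.5%, and 161 of them showed no overlap, against 15.5%. The choice of these genes favoured strong differences, so their counts describe how the separation seen at earlier stages was found again and are no estimate for other genes.

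The restricted genes were expressed at substantial levels in large follicles. The median level was 87.7 CPM in CCs for the CC genes and 74.4 CPM in oocytes for the oocyte genes. On the log2(CPM + 1) scale the median difference between the paired libraries was 5.46, 5.77 and 6.12 over the 10 follicles for the CC genes. It was -5.79 to -6.05 for the oocyte genes, with a median of -5.93. The oocyte genes held 9.60%, 10.9% and 11.2% of the counts of an oocyte, and the CC genes held 2.39%, 2.705% and 3.25% of the counts of a CC library. The 2 ranges did not overlap, and the oocyte set had the larger number of genes.

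Each library held little of the restricted genes of its partner. These genes were chosen for a median under 1 CPM in the other cell type at the earlier stages. The choice favoured low levels here, so the values do not measure how much of its partner's RNA a library held. The summed CPM of the 532 oocyte genes in a CC library was 0.140%, 0.180% and 0.268% of that in the oocyte of the same follicle, lowest in follicle L50505 and highest in L62802. The summed CPM of the 162 CC genes in an oocyte was 0.273%, 0.388% and 0.699% of that in its CCs, lowest in follicle L72102 and highest in L72101. The second range began above the end of the first, so that CC genes in oocytes were at a higher relative level than oocyte genes in CCs in all 10 follicles. With TMM-scaled CPM the ranges overlapped, 0.190% to 0.379% for oocyte genes in CCs and 0.200% to 0.533% for CC genes in oocytes, and the order held in 9 of 10 follicles. In the CC libraries, 44, 55 and 70 of the 532 oocyte genes were above 1 CPM, and in the oocytes 30, 34.5 and 61 of the 162 CC genes were, with the highest number in the oocyte of follicle L62803. The level depended on a minority of genes, since the median ratio of a single gene was 0.0251% for oocyte genes in CCs and 0.0757% for CC genes in oocytes. Whether these counts came from RNA of the other cell type or from expression in the cell itself was not tested.

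**Figure D3:**
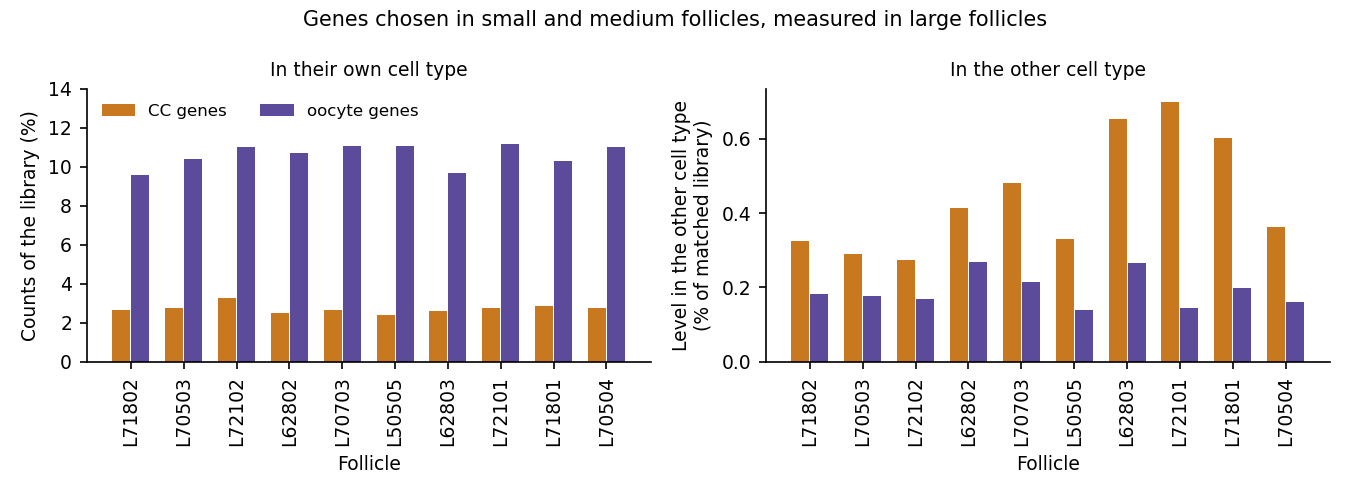
Genes restricted to CCs against oocytes (162) or to oocytes against CCs (532) in small and medium follicles, measured in each of 10 large follicles. The left panel gives their percent of the counts of their own library, 2.39 to 3.25 for CC genes and 9.60 to 11.2 for oocyte genes, and the right panel gives their summed CPM in the other cell type as a percent of the matched library, below 0.7 in every follicle.

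MGCs of the same 10 follicles were set beside these genes as the other granulosa cell type, with the limit that MGC libraries were made by another protocol. Of the 162 CC genes, 157 (96.9%) were above 1 CPM in at least 5 of the 10 MGC libraries, whereas 141 (26.5%) of the 532 oocyte genes were. The same held more weakly for all DEGs, with 4779 (94.3%) of those higher in CCs and 3329 (64.0%) of those higher in oocytes above 1 CPM in MGCs, against 83.6% of all genes tested. Among 2469 DEGs with 10 CPM or more in every CC library, 11 (0.446%) had a mean under 1 CPM in MGCs. Among 3078 DEGs with 10 CPM or more in every oocyte, 507 (16.5%) did. Below 1 CPM in all 10 MGC libraries were 4 of the 2469 and 373 of the 3078. By either criterion, fewer of the genes abundant in CCs were low in MGCs than of the genes abundant in oocytes. The share of all genes tested was not taken for these criteria. With 83.6% of all genes above 1 CPM in at least 5 MGC libraries, the 16.5% is not shown to exceed the share of genes in general.

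The genes with the largest fold changes among abundant genes without overlap are given by identifier, 2 in each direction. They were chosen for their separation in these same libraries, so their fold changes and p-values are given as a description. ENSBTAG00000019453 had 36.4, 110 and 257 CPM in CCs (mean 131 ± 69.7, SD, n = 10), 0 counts in all 10 oocytes and 0 to 4.04 CPM in MGCs, with an MGC median of 0.28. Its level was lowest in follicle L70503 and highest in L50505, and no CC library came near the oocytes. Its CC mean was at least 1231-fold higher than 3 counts per oocyte library, and in single follicles at least 445-fold to 2597-fold (edgeR's quasi-likelihood test, adjusted p = 5.76e-06). ENSBTAG00000010032 had 34.8, 84.1 and 134 CPM in CCs (mean 84.1 ± 27.8), 0 counts in all 10 oocytes and at most 0.82 CPM in MGCs. Its CC mean was at least 791-fold higher than the oocyte floor (adjusted p = 9.73e-06 in edgeR). Both genes were low in MGCs as well, unlike most genes higher in CCs.

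Towards the oocyte, ENSBTAG00000050239 had 71.9, 157 and 200 CPM in oocytes (mean 150 ± 37.3, n = 10), 0 counts in all 10 CC libraries and at most 0.41 CPM in MGCs. Its oocyte mean was at least 1267-fold higher than 3 counts per CC library (edgeR adjusted p = 7.38e-06). It was lowest in the oocyte of follicle L70703 and highest in that of L71802. ENSBTAG00000021747 was far more abundant, with 1077, 1677 and 2001 CPM in oocytes (mean 1649 ± 307, n = 10). It had 17 counts in all of the CC libraries together, spread over 4 of them and reaching 0.26 CPM, and 0 counts in all 10 MGC libraries. The oocyte mean was 13896.5 times the floor of 3 counts per CC library (the CC mean was below that floor), and the ratio of the observed means was 24440 (edgeR adjusted p = 1.2e-09, log2 difference -14.39 ± 0.68 SE), and no library of CCs or MGCs overlapped with an oocyte. Since most small counts were even, the bounds were also taken from halved counts at the same floor of 3, which gave at least 616-fold for ENSBTAG00000019453, 395-fold for ENSBTAG00000010032 and 633-fold for ENSBTAG00000050239, and 6948 times the floor for ENSBTAG00000021747.

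**Figure D4:**
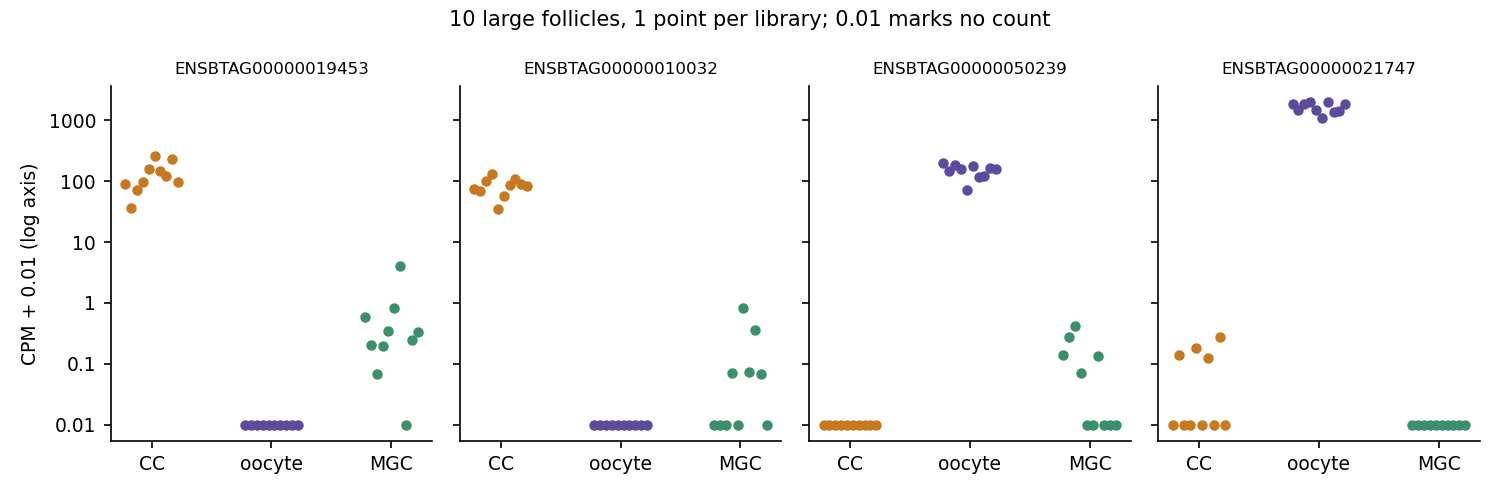
CPM of the 4 genes in the CC, oocyte and MGC libraries of 10 large follicles, 1 point per library, on a log axis with 0.01 added so that 0.01 marks no count. The first pair of genes lies between 34.8 and 257 CPM in CCs with no count in oocytes, and the second pair lies between 71.9 and 2001 CPM in oocytes with at most 0.26 CPM in CCs.

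The same genes were found at the earlier stages. ENSBTAG00000019453 had median levels in CCs of 70.4 CPM in small and 79.9 CPM in medium follicles, and ENSBTAG00000010032 had 33.7 and 31.3 CPM. In oocytes, ENSBTAG00000050239 had medians of 139 and 159 CPM in small and medium follicles, and ENSBTAG00000021747 had 1093 and 1425 CPM. A change of the CC-oocyte difference with stage was not called for any of these 4 genes (edgeR interaction test, adjusted p from 0.248 to 1). The estimates were imprecise, such as -5.10 ± 1.15 (SE, log2) between large and small follicles for ENSBTAG00000050239 and 3.97 ± 1.48 for ENSBTAG00000010032, so a change with stage was neither shown nor bounded.

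The spread between follicles was larger in CCs than in oocytes for genes expressed in both. Among 6074 genes with a mean of 10 CPM or more in each cell type, the median SD of log2(CPM + 1) over the 10 follicles was 0.62 in CCs and 0.43 in oocytes, and the SD was larger in CCs for 4499 genes (74.1%). Leaving out each follicle in turn gave 69.7% to 80.1%, with the highest share without follicle L71801, whose oocyte had the fewest genes, and TMM-scaled CPM gave 74.2%. Over all 15125 genes the medians were 0.62 and 0.53, and the SD was larger in CCs for 8933 (59.1%). The common biological coefficient of variation in edgeR was 0.723 in CCs and 0.745 in oocytes. It was taken over all filtered genes with a count in the cell type and not over the 6074 genes alone. The order thus differed where both the measure and the genes differed. In their own cell type, the restricted genes had a median SD of 0.68 for the 162 CC genes (quartiles 0.49 to 0.86) and 0.43 for the 532 oocyte genes (quartiles 0.33 to 0.56), which are different genes and are not compared. A CC library is a pool of cells and an oocyte library is 1 cell, and the number of cells in a pool was not analysed here.

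**Figure D5:**
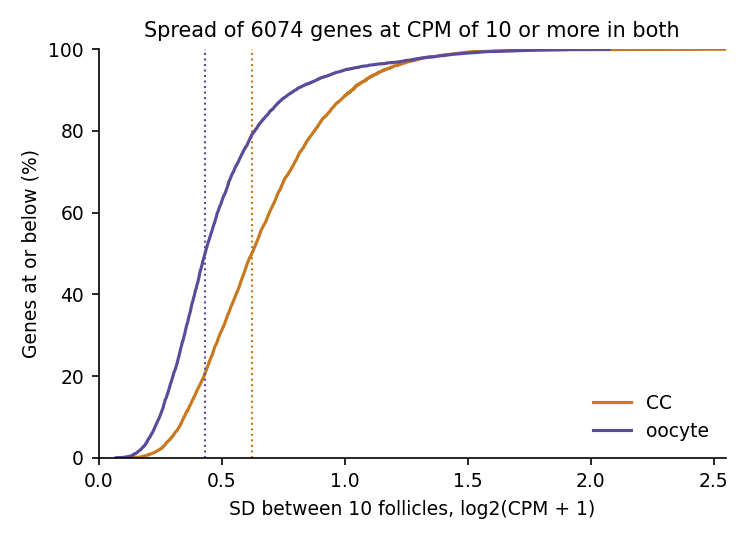
Cumulative percent of 6074 genes, with a mean of 10 CPM or more in both cell types, against the SD of log2(CPM + 1) between 10 large follicles, in CCs and oocytes. Dotted lines mark the medians, 0.62 in CCs and 0.43 in oocytes, and the oocyte curve lies to the left over most of the range.

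The differences held in separate sets of follicles. The study called 4 of the large follicles healthy from these same libraries, and the remaining 6 shared no library with them. The 4 follicles alone gave 7132 DEGs of 15081 genes tested, 3427 higher in CCs and 3705 higher in oocytes. The 6 alone gave 9671 of 15121, with 4648 and 5023. Among the 15077 genes tested in both sets, 7132 were DEGs in the 4 follicles and 9670 in the 6. Of these genes, 6798 were DEGs in the same direction in both sets and 0 in opposite directions. The 6798 were 95.3% of the DEGs of the 4 follicles and 70.3% of those of the 6. When each follicle was left out in turn, 9554 of the 10271 DEGs (93.0%) were called every time, 4693 higher in CCs and 4861 higher in oocytes.

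The CC-oocyte differences of large follicles were set beside those of small and medium follicles to ask whether the separation changed with follicle size. In separate tests, the 8 small follicles gave 8193 DEGs of 15101 genes tested and the 8 medium follicles 10086 of 15125. In large follicles 67.9% of the genes tested were DEGs, which is the background for the shares below. Of the DEGs of large follicles, 7750 (75.5%) were also DEGs in the same direction in small follicles, which was 94.6% of the small-follicle DEGs, and 0 were DEGs in the opposite direction. For medium follicles 9327 were shared in direction, 90.8% of the large-follicle and 92.5% of the medium-follicle DEGs, and 1 gene was opposite. A gene called in only one of these tests is not thereby shown to differ.

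The test of the difference itself, edgeR's interaction of cell type and stage over 52 libraries with the follicle as a block, called 2 of 15133 genes (0.0132%) between large and small follicles and 0 (0%) between large and medium follicles. At an unadjusted p under 0.05 and a difference over 2-fold there were 930 and 322 genes, and DESeq2 called 288 and 22. Without the follicle block edgeR called 132 and 9. The interval of the interaction was within -1 and 1 on the log2 scale for 1654 genes (10.9%) against small and 2193 genes (14.5%) against medium follicles. The median standard errors were 0.87 and 0.84, so for most genes a 2-fold change of the CC-oocyte difference was not detectable with these follicles.

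Both called genes were already higher in oocytes in small follicles, and the difference was larger in large ones. The calls depended on the settings. Neither was called by edgeR with library totals, with follicle S70701 or with all 30 follicles, each of which gave 0 genes (845, 457 and 212 at an unadjusted p under 0.05 and over 2-fold), and the healthy follicles alone gave 1 gene, in the opposite direction. The first had 7.17, 22.7 and 35.2 CPM in CCs and 35.2, 56.1 and 88.3 CPM in oocytes of small follicles. In large follicles it had 5.87, 14.2 and 34.9 CPM in CCs and 57.8, 152 and 191 CPM in oocytes, so that the cell types met at their edges in small follicles and were apart in large ones. Its log2 difference of CCs from oocytes was -1.19 in small and -2.32 in medium follicles and reached -2.89 in large ones, and the interaction was -1.83 ± 0.32 (SE; edgeR adjusted p = 0.0453). The second had 17.8, 41.7 and 61.4 CPM in CCs and 91.3, 147 and 281 CPM in oocytes of small follicles. It had 12.1, 17.7 and 42.4 CPM in CCs and 150 to 291 CPM in oocytes of large follicles, with an oocyte median of 237, and the cell types did not overlap at either stage. Its log2 difference was -1.69 in small and -2.09 in medium follicles and reached -3.14 in large ones, and the interaction was -1.58 ± 0.29 (SE; edgeR adjusted p = 0.0453). For both genes the median CPM was lower in CCs and higher in oocytes of large follicles than of small ones, and neither shift within a cell type was tested here.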

How the data were processed

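The deposited values were raw read counts per gene for 27270 Ensembl identifiers, of which 931 had no count, made by the authors from reads aligned to ARS-UCD1.2 and counted over exons with featureCounts. The submitters' processing notes name HISAT2 2.2.1 and the study's methods another aligner, a point left unresolved. All 20 libraries of CCs and oocytes of large follicles were used, and the number of table columns given to no sample was 0. Symbols matched no identifier, so planned gene lists, cell markers and mitochondrial or ribosomal shares were not run, and sets from small and medium follicles took the place of the markers. The members, lists and tests were chosen with earlier results of these data known.

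A gene was kept if 15 or more libraries of a cell type had it above 1 CPM (15134, the study's filter with CPM in place of TPM). The follicles counted were those the study retained after quality control, whether or not it called them healthy. The CC-oocyte comparison used edgeR 4.0.16 in R 4.3.3 (TMM, glmQLFit and glmQLFTest) with the follicle as a block, a fold change above 2 and a Benjamini-Hochberg adjusted p under 0.05. The pairing comes from the follicle, and deviations of same-numbered libraries correlated at -0.01 to 0.27, with a median of 0.11. The median for libraries of different follicles was -0.02. The interaction fit left out the 3 follicles the study removed and 1 small follicle, S70701, whose CC column is partial, which leaves 8 small, 8 medium and 10 large follicles. DESeq2 1.42.0 was the alternative tool. The fits were also run on simulated counts with few changed genes and no effect of the follicle. That setting differs from these data and cannot test the scaling or the block in them. Library measures used exact two-sided sign-flip permutation tests in Python 3.11.15 with scipy 1.17.1, adjusted over 6 measures. Restricted genes had 10 CPM or more in all 16 libraries of one cell type and a median under 1 CPM in the other. The floor for genes without counts was 3 counts per library, which covers counting error only, since reads without molecular identifiers are not independent molecules.

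The rule for genes named was the largest log2 fold change in each direction among DEGs whose libraries did not overlap and whose mean log2 CPM reached 3, limited to 2 identifiers per direction because no symbols could be paired. The genes of the interaction test are for that reason given without identifiers, and they were described after their values were seen. Alternatives were no block, library totals, DESeq2 size factors, other filters, halved counts, other sets of follicles and leaving out each follicle in turn. The restricted sets, their stricter form, CPM scaled by TMM factors, fold bounds from halved counts and the spread without each follicle were chosen after seeing the data.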

Additional observations from a re-analysis of the deposited data

Results flagged for a closer look

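In each of 18 groups of 10 values, the gap of the highest or lowest library to its neighbour was compared with the range, and chance alone flags about 1 such group in 20. The oocyte of follicle L71801 stood apart with the fewest genes above 1 CPM, 10830, and with the fewest genes with any count, 11861. The CC library of follicle L62803 stood apart with the most genes with any count, 18588. Without follicle L71801 the comparison of CCs with oocytes gave 10367 DEGs, and without L62803 it gave 10128.

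The CC-oocyte difference differed between large and small follicles for 2 genes by edgeR's interaction test, both with a larger excess in oocytes of large follicles. The count was 0 in edgeR with library totals, with follicle S70701 and with all 30 follicles (845, 457 and 212 genes at an unadjusted p under 0.05 and over 2-fold).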

How the results depend on the processing

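The count of 10271 DEGs stayed within 1.5 times under every alternative tried, from 7132 in the 4 follicles called healthy to 11246 of 23899 genes without a filter on low counts. It was 10364 without the replicate block, 10636 with DESeq2, 9487 with filterByExpr and 10049 to 10367 when each follicle was left out. The replicate block changed no call of the 4 genes given by identifier, which kept their direction and significance under each alternative run. Over all results and alternatives, 200 values kept their call or size and 19 moved. Those that moved include the 2 calls of the interaction between large and small follicles, which fell to 0 in some settings given below. Beside these, 1 test of a library measure lost its call. That one was the number of genes above 1 CPM, whose mean difference of -876 became -479 with CPM scaled by TMM factors (exact permutation test over 10 pairs, adjusted p = 0.0563).

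The interaction between large and small follicles called 2 genes in edgeR with the follicle block. It called 132 without the block, 288 with DESeq2 and 1 with only the healthy follicles, whose difference ran opposite to both of the 2 genes. It called 0 with library totals (845 at an unadjusted p under 0.05 and over 2-fold), 0 with follicle S70701 (457) and 0 with all 30 follicles (212), all in edgeR. Between large and medium follicles it called 0 in the main test, 9 without the block and 22 with DESeq2. The cause was not tested.

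Oocyte genes in CC libraries were at 0.180% of the matched oocyte by sums, 0.0251% by the median ratio of single genes and 0.0679% with the 191 genes above 50 CPM. CC genes in oocytes were at 0.388%, 0.0757% and, with 31 genes, 0.203%. The median SD over all genes was 0.832 in CCs and 0.643 in oocytes with a pseudocount of 0.1 in place of 1. Leaving out each follicle moved it between 0.592 and 0.638 in CCs and between 0.482 and 0.542 in oocytes. The lowest total was 17076271 counts, and amplification noise in SMART-seq2 libraries was not measured.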
